A study of Homo sapiens with 2 samples.

Results

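Distal 6p is the outer stretch of the short arm of chromosome 6, from the chromosome start to 34.5 Mb (hg18), and was read out as 690 probes of 50 kb out of 61607 that tile the genome. It holds the large histone gene cluster and the major histocompatibility complex (MHC), treated below as one block from 26 to 34 Mb with 160 probes; the other 530 probes lie outside that block. The values come from 4C-seq of U2OS, a human osteosarcoma cell line that carries the transgenes DRGFP, TRE-I-SceI and Tet-On, with the vantage point in DRGFP, an integrated reporter of homologous recombination at an I-SceI break. No treatment is recorded, so that no break induction is stated, and there are no control samples: 2 independent experiments form a single group and are called replicates 1 and 2. All cells were crosslinked in 2% formaldehyde, and all of them carry the same integrated transgenes. Comparisons are therefore between stretches of the genome within each replicate, and no test over samples is possible with 1 group.

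In 4C, crosslinked chromatin is cut and religated, and inverse PCR from a fixed fragment recovers what was ligated to it, so that a sequence near the vantage point in the nucleus is met more often. Here the first enzyme was HindIII, which cuts at AAGCTT, and the second was Csp6I, which cuts at GTAC; a probe can yield reads only where such sites leave usable fragments. The MHC is among the most gene-dense parts of the human genome. Its class I and class II genes encode the molecules that present peptides to T cells, and its class III genes include complement factors and cytokines. The histone cluster beside it supplies most replication-dependent histone genes, which are transcribed in S phase at nuclear bodies.

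The smallest step of the signal was taken as 1 read, worth 1.06 RPM (reads for each 1000000 of the library) in replicate 1 and 2.20 in replicate 2. With the signal taken as RPM, the library totals were 944456 and 454091 reads. The probes summed to slightly more, 947121 and 454478 reads. A probe is called detected where it had at least 1 read. The probes were chosen by their position, and the inner end at 34.5 Mb had itself been placed by the share of probes with reads along chromosome 6, so the low detection inside it is described here without a test. Shares carry 95% Clopper-Pearson intervals, which cover counting error only: neighbouring probes share a chromosome, and the reads are PCR copies without molecular identifiers. 

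Distal 6p had reads at few of its probes, at a level within the range of the 19 autosomes other than 6, 12 and 17. Chromosomes 6, 12 and 17 were left out because they hold raised stretches, while the 19 were not searched for any. In replicate 1 reads reached 49 of 690 probes (7.10%, interval 5.30% to 9.28%), and in replicate 2 they reached 37 (5.36%, interval 3.80% to 7.32%), a mean of 6.23% ± 1.23 (SD, n = 2). Over all 61607 probes the shares were 8.06% and 8.63%. Over the 49714 probes of the 19 autosomes other than 6, 12 and 17, called the unlinked autosomes below, they were 6.54% in replicate 1 and 7.00% in replicate 2. Distal 6p thus lay 0.562 percentage points above the unlinked autosomes in replicate 1 and below them in replicate 2, with a difference of -1.64 percentage points, so that the replicates did not share a direction.

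Placed among the 19 unlinked autosomes, distal 6p had a larger share of detected probes than 13 of them in replicate 1 and than 3 of them in replicate 2. The autosomes ran from 3.83% on chromosome 21 to 8.09% on chromosome 7 in replicate 1, with a median of 6.11%. In replicate 2 they ran from 3.73% on chromosome 22 to 8.92% on chromosome 8, with a median of 6.58%. The share of distal 6p stayed inside that range in both replicates. Chromosomes 16, 19 and 20, which are small and gene-dense, had reads at 5.58% and 5.67% of 4303 probes. The outermost stretches of equal length at the start of each unlinked autosome had reads at 5.66% and 5.81%, and without the acrocentric chromosomes, whose short arms hold little assembled sequence, at 6.69% and 6.85%.

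**Figure D1:**
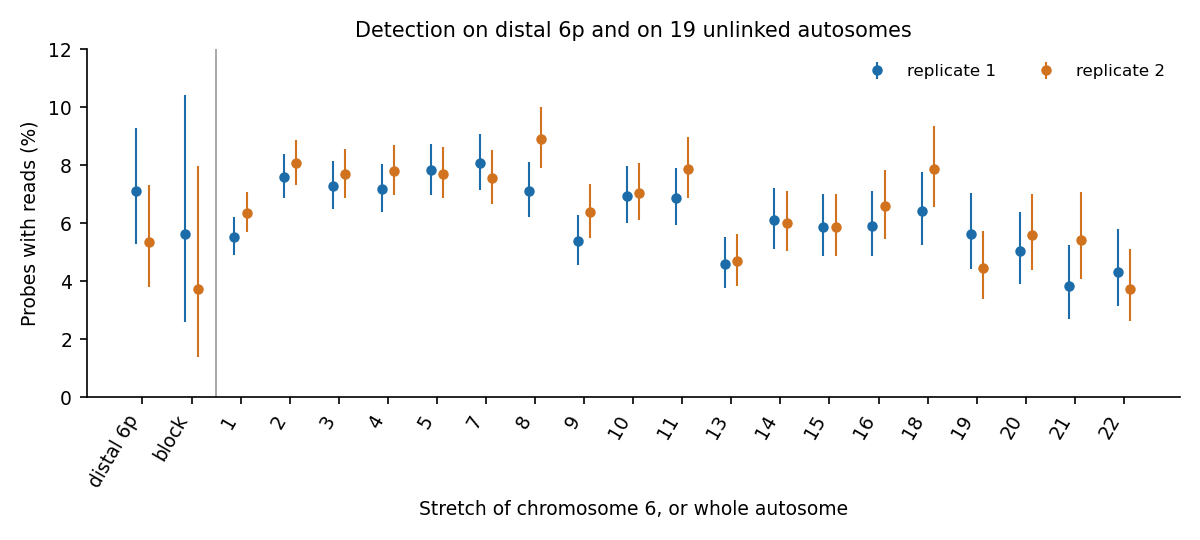
Share of 50 kb probes with reads (%), in replicate 1 and replicate 2, for distal 6p, for its histone and MHC block, and for 19 whole autosomes; points are shares and bars are 95% Clopper-Pearson intervals. Distal 6p sits at 7.10% and 5.36%, inside the range of the autosomes, and the block at 5.62% and 3.75% with wide intervals.

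The low level ended sharply at 34.5 Mb. Of the last 10 probes inside, those from 34000001 to 34500000, none had a read in replicate 1. In replicate 2 the probe of HMGA1, which encodes an architectural chromatin protein (34300001 to 34350000), had 1 read. The probes of GRM4, a glutamate receptor gene, and of NUDT3, a phosphatase gene of inositol signalling, had 0 in both. Of the first 10 probes outside, 7 had reads in replicate 1 and 6 in replicate 2. RPS10, a ribosomal protein gene at the first of these (34500001 to 34550000), had 100 reads and 0. PACSIN1, a gene of endocytosis at the next (34550001 to 34600000), had 17 and 10, and C6orf106 (34700001 to 34750000) had 45 and 21.

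In windows of 1 Mb counted back from 34.5 Mb, each of the 34 windows inside had 0 to 4 detected probes of 20 in replicate 1 and 0 to 3 in replicate 2. The first 10 windows outside had 11 to 19 and 8 to 19. The ranges did not overlap in either replicate, as the choice of the end entails. Of the windows inside, 6 had no reads in replicate 1, 13 had none in replicate 2 and 3 had none in either.

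**Figure D2:**
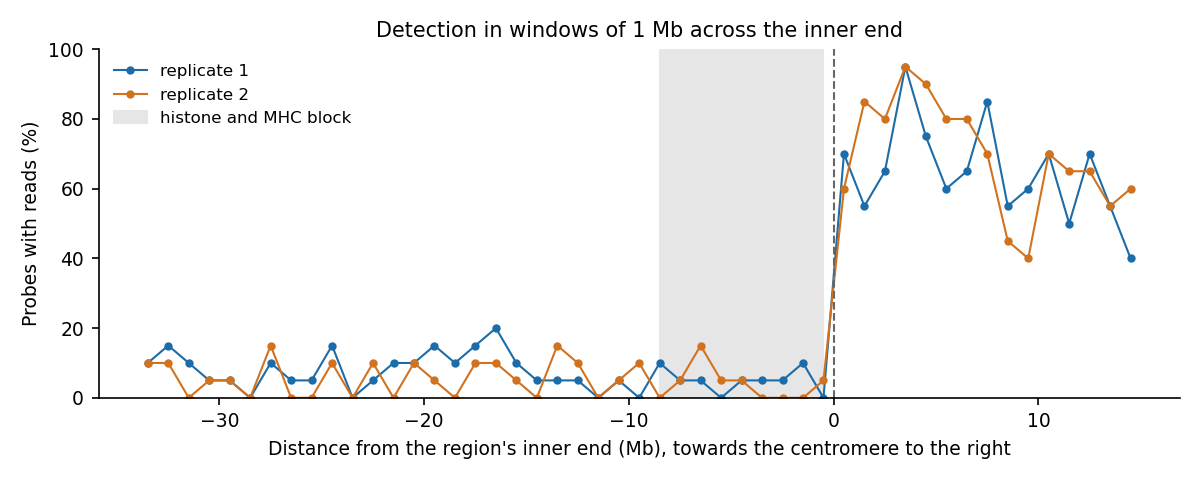
Share of probes with reads (%) in consecutive 1 Mb windows of chromosome 6, against the distance of the window from the region's inner end (Mb; negative values lie inside distal 6p), for replicate 1 and replicate 2; the dashed line marks the end and the grey band the histone and MHC block. Windows inside hold at most 4 detected probes of 20, while the first 10 windows outside hold at least 8.

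The histone and MHC block was detected less often than the rest of distal 6p in both replicates where 1 read counted, by an amount within the intervals, and the shared direction was lost with a higher minimum. Reads reached 9 of its 160 probes in replicate 1 (5.62%, interval 2.60% to 10.4%) and 6 in replicate 2 (3.75%, interval 1.39% to 7.98%). Outside the block they reached 40 and 31 of 530 probes (7.55%, interval 5.45% to 10.1%, and 5.85%, interval 4.01% to 8.20%). The difference of the block from the rest was -1.92 and -2.10 percentage points in replicates 1 and 2, a mean of -2.01 ± 0.125 (SD, n = 2). Counting only probes with at least 2 reads, the difference was 0.0943 in replicate 1 and -1.21 in replicate 2, and with at least 10 reads it was 0.295 and -1.26. Outside the block 14 and 8 probes had a single read; in the block there was 1 such probe in each replicate.

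The block also held few reads. It took 421 reads in replicate 1 and 58 in replicate 2, which is 2.79 and 0.798 RPM per probe, against 8.66 and 5.14 outside it. Outside it, 1 probe held 999 of 4335 reads in replicate 1, and another held 540 of 1236 in replicate 2. The median reads of detected probes were 19 and 4 in the block, and 6 and 4 outside it. Over the unlinked autosomes the mean was 3.93 and 3.89 RPM per probe, and over chromosomes 16, 19 and 20 it was 3.67 and 3.66. The block lay below both of these in each replicate, and its 2 replicates differed from each other more than either of those means did. Single unlinked autosomes ran from 1.11 to 6.54 RPM per probe in replicate 1 and from 1.05 to 5.78 in replicate 2. The block lay inside the range of replicate 1 and below that of replicate 2. Its density of gene names was 16.2 per Mb, against 6.53 in the rest of distal 6p, 8.64 on chromosomes 16, 19 and 20 and 5.87 on the unlinked autosomes. No fragment map of hg18 was used here, so the number of HindIII sites per probe was not compared.

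No probe of the block had reads in both replicates. A count of 0 of 160 allows a share of up to 1.875%, above the 1.28% of the unlinked autosomes, so it cannot be told from that share. The values by gene follow the order along the chromosome. In the histone part, from 26 to 28 Mb, each replicate reached 3 of 40 probes, and these were different probes. SLC17A2, a phosphate transporter gene at the block's first probe, had 2 reads in replicate 1. The last of 4 neighbouring probes named HIST1H4A (now H4C1), a histone H4 gene, had 58 reads in replicate 1 and 0 in replicate 2 (26300001 to 26350000). That name covers 200 kb, so it stands for a stretch with several genes and not for a single histone gene. The probe of VN1R6-2P had 27 reads in replicate 1, while replicate 2 had 40, 3 and 2 reads at probes with clone-based names or no gene. The probes named for HIST1H4G, HIST1H2BJ and HIST1H3H had none, and the same held for those of BTN2A2, BTN3A3 and BTN1A1, butyrophilin genes of the immunoglobulin superfamily.

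Between the histone genes and HLA-F, from 28 to 29.8 Mb, lie olfactory receptor and zinc finger genes. OR2W2P, an olfactory receptor pseudogene (28100001 to 28150000), had 187 reads in replicate 1 and 0 in replicate 2, while the probe before it had 0 and 7. OR2J2, an olfactory receptor gene, had 0 and 1. GABBR1, which encodes a subunit of the receptor for the transmitter GABA, had 9 and 0 at the second of its probes (29700001 to 29750000). All 10 listed zinc finger genes of the histone part and this one that name a probe had 0 reads in both, among them ZNF184 in the former and ZNF311 and ZNF165 in the latter. A count of 0 of 10 probes allows a share of up to 30%, far above that of the region.

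In the class I part, from HLA-F up to LTA, each replicate reached 1 of 37 probes. HLA-B, whose product presents peptides to cytotoxic T cells, was named at 3 neighbouring probes, and the last of these (31400001 to 31450000) had 112 reads in replicate 1 and 0 in replicate 2. The name covers 150 kb and may stand for several genes, so the value is that of the probe and not of HLA-B itself. At 119 RPM this was the highest probe between HLA-F and the end of the block in either replicate. MICC, a pseudogene of the MIC family (30450001 to 30500000), had 0 and 5 reads. The probes of HLA-F and HLA-G had none. The same held for 12 of 13 other genes listed for the class I region, TRIM26, TUBB and DDR1 included and GABBR1 the exception. TRIM38 of that list lies in the histone part (26050001 to 26100000). Class I genes resemble each other and vary between people, and how reads with several matches were placed was not stated, so values at HLA probes carry that uncertainty.

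The class III part, from LTA to NOTCH4 (31650001 to 32350000), had no reads in either replicate. With 0 of 14 probes, a share of up to 21.4% is allowed by counting error, above the share of the whole region, so the absence cannot be told from low detection at this depth. Its named genes include LTA, a cytokine gene, C2 and C4A, which encode complement factors, HSPA1B, a heat shock gene, TNXB and NOTCH4. In the class II part 3 of 18 probes had reads in replicate 1 and 0 in replicate 2. C6orf10 (now TSBP1) had 19 reads at the last of its 3 probes (32450001 to 32500000), HLA-DQB1, a class II chain gene, had 1 (32750001 to 32800000), and BRD2, a bromodomain protein gene within this part, had 6 (33050001 to 33100000). HLA-DRA, HLA-DRB1, HLA-DOB and TAP2 had none. From 33.1 Mb to the HMGA1 probe at 34.3 Mb, 24 probes in a row had no reads in either replicate, COL11A2, BAK1 and ITPR3 among their names.

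**Figure D3:**
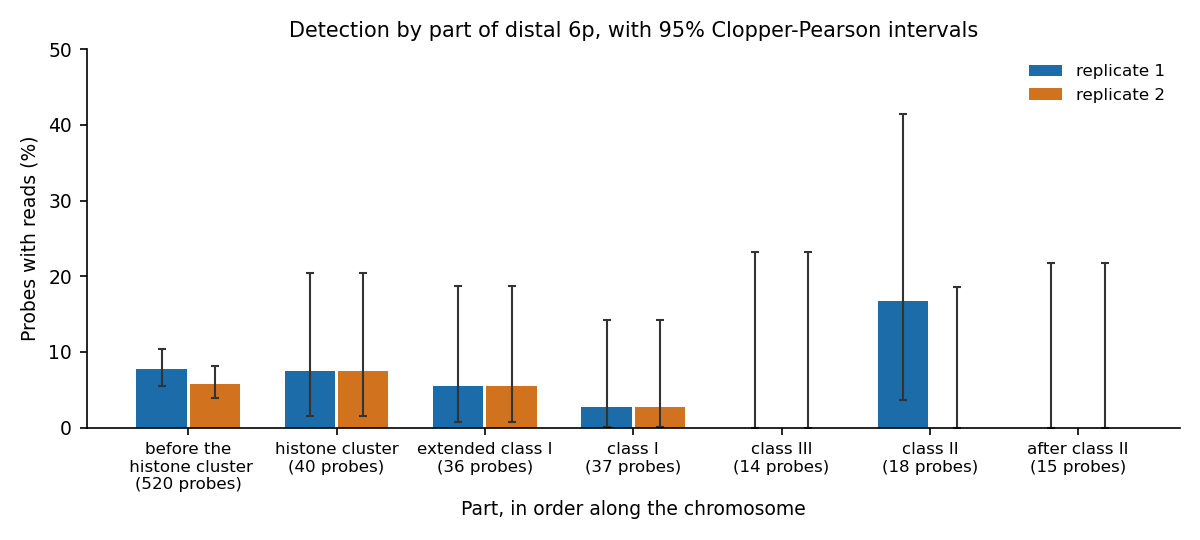
Share of 50 kb probes with reads (%) in the stretch before the histone cluster and in 6 consecutive parts of the histone and MHC block, in replicate 1 and replicate 2; bars are shares and lines 95% Clopper-Pearson intervals, and the number of probes stands under each part. The class III part and the part after class II have no reads in either replicate, and all intervals of the block's parts overlap that of the stretch before it.

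Before the block, from the chromosome start to 26 Mb, 40 and 30 of 520 probes had reads. By stretches of 5 Mb up to 25 Mb, 3 to 14 of 100 probes were detected in replicate 1 and 5 to 6 of 100 in replicate 2. The 14 of replicate 1 fell between 15 and 20 Mb, where replicate 2 had 6. The stretch from 25 to 30 Mb had 5 and 7 detected probes of 100, and that from 30 to 34.5 Mb had 4 and 2 of 90. The longest run without reads in either replicate was 43 probes, from 22.1 to 24.25 Mb, between a probe without a gene and NRSN1, a neuronal gene.

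**Figure D4:**
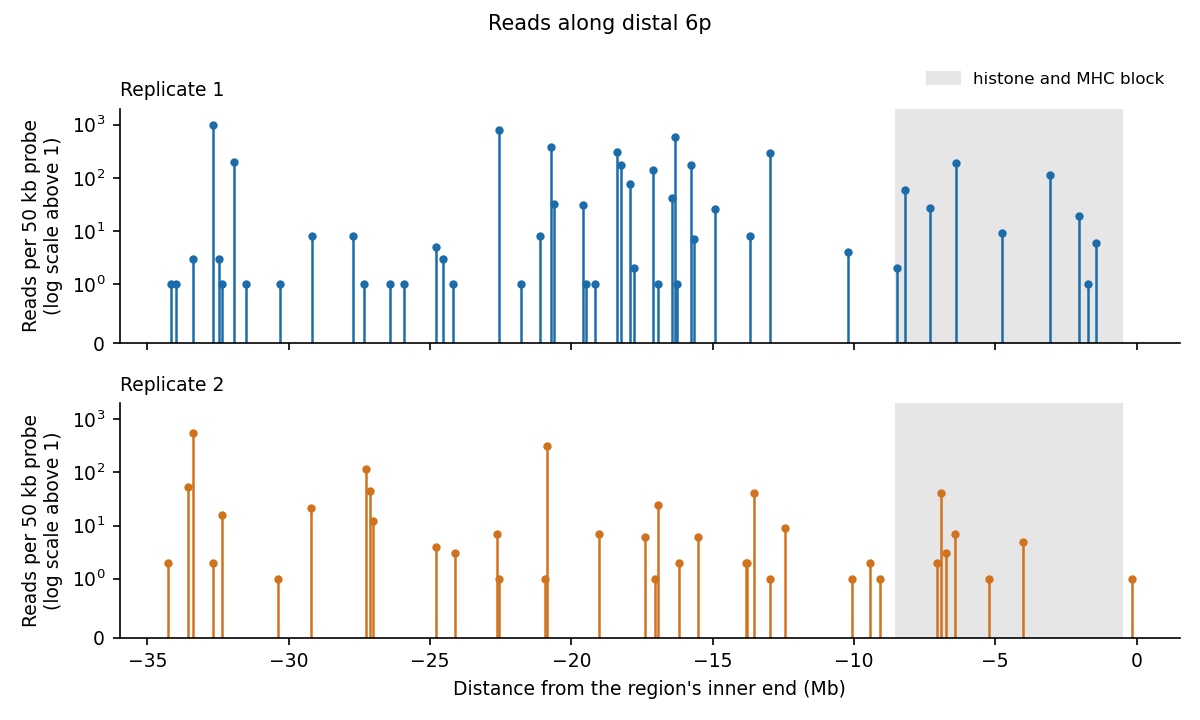
Reads per 50 kb probe (log scale above 1) along distal 6p, against the distance from its inner end (Mb), with replicate 1 above and replicate 2 below; each line with a point is a probe with reads, and the grey band is the histone and MHC block. Probes with at least 100 reads in a replicate have at most 3 in the other, and the top value is 999 reads in replicate 1 and 540 in replicate 2.

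Probes with at least 100 reads carried most of the reads of distal 6p, and the same held on the unlinked autosomes. The region held 4756 reads in replicate 1 and 1294 in replicate 2, or 0.504% and 0.285% of the libraries. The 12 probes with at least 100 reads in replicate 1 made up 91.5% of its reads there, and the 3 such probes of replicate 2 made up 74.4%. None of these 15 probes had more than 3 reads in the other replicate. Of the 12, 9 had no read in replicate 2, and of the 3, 2 had none in replicate 1. On the unlinked autosomes, 67.2% of the probes with at least 100 reads in replicate 1 and 67.4% of those in replicate 2 had none in the other library. Such probes made up 82.3% and 58.6% of the reads there in replicates 1 and 2. They were 0.859% and 0.451% of the unlinked probes, against 1.74% and 0.435% of the probes of distal 6p.

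In replicate 1 the mean of 7.30 RPM per probe was above that of all 19 unlinked autosomes, which ran from 1.11 to 6.54. Without the highest probe of the region, at GMDS, it was 5.77. In replicate 2 the mean was 4.13, above 12 of the 19 autosomes, and 2.41 without its highest probe, which has a clone-based name (1100001 to 1150000). A mean over this region was therefore set by 1 or a few probes in each replicate.

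GMDS, which encodes the first enzyme of GDP-fucose synthesis, had 999 reads in replicate 1 and 2 in replicate 2 at one of its 12 probes (1800001 to 1850000), which is 1058 and 4.40 RPM. C6orf105 (now ADTRP), a gene linked to the control of coagulation, had 792 and 1 (11900001 to 11950000), and its other probe had 0 and 7. RANBP9, a scaffold protein gene (13750001 to 13800000), had 387 and 0. C6orf195 (now LINC01600), a non-coding gene (2550001 to 2600000), had 197 and 0. MYLIP, a ubiquitin ligase gene that acts on the LDL receptor (16250001 to 16300000), had 178 and 0, and RBM24, an RNA-binding protein gene of muscle (17350001 to 17400000), had 139 and 0. RBM24 ranked 11 in replicate 1, just outside the 10 highest probes. Those 10 also included OR2W2P of the block and a clone-named probe with 588 and 0 (18150001 to 18200000). The others were probes without a gene with 310 and 0 (16100001 to 16150000), with 289 and 1 (21500001 to 21550000) and with 175 and 0 (18700001 to 18750000). Each of these was high in replicate 1 alone.

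In replicate 2 the highest probes had a clone-based name, with 540 reads at 1.1 Mb and 310 at 13.6 Mb against 3 and 0 in replicate 1. Of the probes with a gene symbol the highest was that of SSR1, a subunit of the translocon-associated complex (7200001 to 7250000), with 113 reads against 0 in replicate 1. RIOK1, a kinase gene of ribosome assembly (7350001 to 7400000), had 44 against 0, and a CDKAL1 probe (20950001 to 21000000) had 41 against 0. A probe without a gene at 0.9 Mb had 53 against 0. FARS2, a mitochondrial tRNA synthetase gene, had 0 and 21 reads at one probe (5250001 to 5300000) and 8 and 0 at the next. CAP2, an actin regulator gene (17550001 to 17600000), had 1 and 24.

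Reads in both replicates were found at 7 of the 690 probes (1.01%), all before the block. On the unlinked autosomes 1.28% of probes and over all probes 2.48% had reads in both. The 7 were 14.3% of the detected probes of replicate 1 and 18.9% of those of replicate 2; on the unlinked autosomes the shared probes were 19.6% and 18.3%, and on chromosome 6 after 34.5 Mb they were 51.9% and 45.0%. Independent placing of 49 and 37 probes would give 2.63 shared probes on average, and on the unlinked autosomes 228 beside the 638 found. The observed number was above the independent one in both, as a description only. Where the smaller read number had to be at least 1% of the larger, 3 remained in distal 6p, near 2.63, and 491 on the unlinked autosomes. That minimum was chosen after seeing the data, and the independent numbers were not recomputed for it. With 100 kb windows in place of probes 9 of 345 were shared, and with 500 kb windows 22 of 69. Wider windows take in more probes, so the share rises with the setting itself. No such count was made on the unlinked autosomes, so these shares have no background.

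The 7 shared probes differed widely in level. A probe without a gene (9700001 to 9750000) had 5 and 4 reads and was the only one with at least 4 in each. GMDS was shared at 2 probes, the one with 999 and 2 reads and another (2100001 to 2150000) with 1 and 16. The remaining ones were the ADTRP probe with 792 and 1, the CAP2 probe with 1 and 24, the probe without a gene with 289 and 1, and the clone-named probe at 1.1 Mb with 3 and 540. At 4 of the 7 the smaller read number was under 1% of the larger, against 23.0% of the 638 shared probes of the unlinked autosomes. Whether reads passed between the libraries at those probes was not tested.

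An exact binomial test of the reads, given the library totals and with Benjamini-Hochberg adjustment over the 8750 probes of the genome with reads, compares the libraries and not conditions. It treats reads as independent draws, while they are PCR copies without molecular identifiers, so its p-values may be too small. Over all of those probes 49.2% differed between the libraries. In distal 6p 38 of 79 probes with reads in either replicate did, 20 higher in replicate 1 and 18 higher in replicate 2. Of the 7 shared probes 6 differed, the exception being the one with 5 and 4 reads (adjusted p = 0.635 by the exact binomial test). At the CAP2 probe the adjusted p of that exact test was 1.37e-10, with 1 read against 24.

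**Figure D5:**
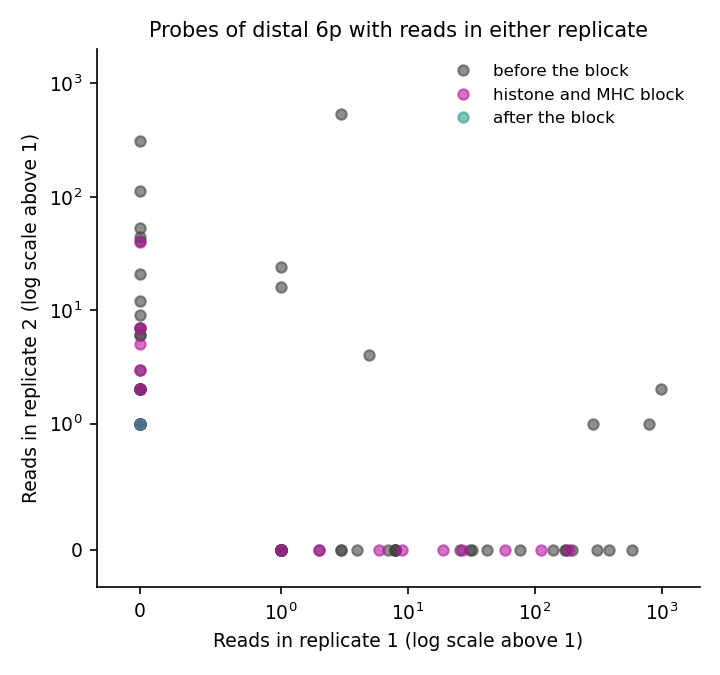
Reads in replicate 2 against reads in replicate 1 (both log scale above 1) for the 79 probes of distal 6p with reads in either replicate, coloured by position before, in or after the histone and MHC block. Most points lie on an axis, with reads in 1 replicate and 0 in the other; the 7 away from both axes all lie before the block.

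Genes that span several probes were met at different places. Of the 21 names with at least 4 probes, 133 probes in all, 10 had reads in replicate 1, 7 in replicate 2 and 4 in both (GMDS, CDKAL1, FARS2 and CAP2). By probe this is 9.77% and 7.52%, against 7.07% and 7.39% of the probes over a gene on the unlinked autosomes. CDKAL1, a tRNA-modifying enzyme gene with 14 probes, had 8 reads at one probe in replicate 1 and 2, 2 and 41 at 3 others in replicate 2. PHACTR1 (named RPEL in the deposited annotation), with 12 probes, had 8 reads at one in replicate 1. ATXN1, the ataxin-1 gene, had 77 and 2 reads at 2 of its 9 probes in replicate 1 and none in replicate 2, and JARID2, a cofactor of the Polycomb complex PRC2, had 7 in replicate 2. CDYL, F13A1, BMP6 and HIVEP1 had no reads at any of their probes. KIF13A, a kinesin gene with 5 probes, had 42 reads in replicate 1.

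Across the gene lists the median probe had 0 reads in both replicates, as it did over all probes. On the unlinked autosomes 12.6% of gene names had reads at some probe in replicate 1, 12.8% in replicate 2 and 4.02% in both. Of 15 listed genes near the chromosome end, 4 had reads in replicate 1 and 2 in replicate 2. GMDS was the 1 in both. By probe this is 17.6% and 8.82% of 34, against 7.07% and 7.39% of the probes over a gene on the unlinked autosomes. Of the 6 and 3 detected probes of this list, 3 and 2 were of GMDS. IRF4, a lymphocyte transcription factor gene, EXOC2, an exocyst gene, and NQO2 had 1 read each in replicate 1, and DUSP22, a phosphatase gene, had 2 in replicate 2. FOXC1, FOXF2 and FOXQ1, forkhead transcription factor genes, and SERPINB1 had none. Of 55 listed genes from there to the block's first probe, 11 had reads in replicate 1, 7 in replicate 2 and 3 in both, which by probe is 7.59% and 5.70% of 158. RREB1 and NHLRC1 had a single read in replicate 1, and DCDC2 and LRRC16 (now CARMIL1) a single read in replicate 2. TFAP2A, BMP6, DSP and EDN1, regulators or structural genes of development, had no reads, and the same held for the 10 class III genes. Of the 10 listed class II and peptide processing genes, 1 had a read, in replicate 1.

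Probes over a gene were detected in 7.29% and 6.04% of 480 cases and those over no gene in 6.67% and 3.81% of 210. The intervals overlapped, at 5.13% to 10.0% against 3.69% to 10.9% in replicate 1. In replicate 2 they were 4.08% to 8.56% against 1.66% to 7.37%. The order was the same on the unlinked autosomes, at 7.07% and 7.39% over a gene against 5.80% and 6.46% over none. In the block 9 and 5 of 152 probes over a gene had reads (5.92% and 3.29%), and 0 and 1 of the 8 over no gene, too few to give an order. Replicate 1 was sequenced more deeply; thinned to the reads of replicate 2 by exact expectation, its share on distal 6p would be 5.81%, beside the 5.36% of replicate 2, and on the unlinked autosomes 4.92%, beside 7.00%.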

How the data were processed

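Both 4C-seq libraries were analysed, as replicates 1 and 2 of 1 group. The authors deposited 1 table with a signal column per library over 50 kb probes; per the submitters' processing notes the build was hg18, while no source used here names the aligner, read filters or counting tool. The deposited signal was taken as RPM. In each library 100% of values above 0 were whole multiples of 1 step, taken as 1 read, within a tolerance of 0.1 read. That does not itself fix the unit, and the probes summed to 100.282% and 100.085% of the library totals so derived. The 2 rows holding a total and a mean, and 1 mitochondrial probe, were left out. The members, the block and the gene lists were chosen with earlier results of these data known, and the division of the MHC by gene names was made after the values were seen. Of 303 gene names on distal 6p, 143 were current and 44 matched a single synonym in RefSeq's GRCh38.p14 gene table, used for names alone; clone-based names are not printed. Named were the probes with reads in both replicates, the 10 highest of each replicate, list members with reads and up to 4 without in list order, and the probes beside the inner end; some other names without reads, and RBM24, were added after their values were seen. Shares have exact 95% Clopper-Pearson intervals. The exact binomial test of recovered reads, called at an adjusted p of 0.05, stands in for a count model, since 1 group gives no contrast, and called 38 probes. It was tested on simulated Poisson counts, which hold no PCR copies and so could not show their effect. Python 3.11.15, SciPy 1.17.1 and pandas 2.3.3 were used. A value of 0 of n allows 3 counts in n. Alternatives covered read minimums, region limits, comparison stretches, depth and leaving out each replicate. No sequence was printed, as no hg18 genome was used here.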

Additional observations from a re-analysis of the deposited data

How the results depend on the processing

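The share of distal 6p probes with reads, 6.23%, was 4.49% with at least 2 reads and 2.25% with at least 10, and ran from 5.36% to 7.10% when either replicate was left out. The mean of 5.71 RPM per probe ran from 4.13 to 7.30 with either replicate left out; the median of detected probes was 8.64 RPM, which is another quantity. The block's share, 4.69%, was 1.88% with at least 10 reads and ran from 3.75% to 5.62% with either replicate left out. Its difference from the rest, -2.01 percentage points, was -0.560 with at least 2 reads and -0.484 with at least 10, with opposite signs in the replicates at both, and ran from -2.10 to -1.92 by replicate. The difference from the unlinked autosomes, -0.538, has no settled sign: it was 0.191 with at least 2 reads, -0.0940 with at least 10, 0.496 against the first stretch of each autosome but -0.538 without the acrocentric chromosomes (chosen after seeing the data), 0.608 against chromosomes 16, 19 and 20, and -1.64 without replicate 1 and 0.562 without replicate 2. The 7 shared probes became 3 with at least 2 reads, 0 with at least 10, 22 in 500 kb windows, and 3 where the smaller read number had to be at least 1% of the larger, an alternative chosen after seeing the data. The causes of these shifts beyond the settings' own construction were not tested. The 38 probes that differed between libraries by the exact binomial test remained 38 in number with totals of reads off chromosome 12, also chosen after seeing the data. No paired analysis was possible because there is 1 group. Single reads limit these values: 15 of 49 detected probes in replicate 1 and 9 of 37 in replicate 2 rest on 1 read. That is 30.6% and 24.3% of the detected probes, against 41.4% and 31.9% on the unlinked autosomes.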
